A study of Mus musculus with 2 samples.

Results

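The H2 genes of the mouse major histocompatibility complex (MHC) were examined in an ATAC-seq map of myeloid progenitors. They were taken as the protein-coding genes on chromosome 17 whose names begin with H2-, which gave 34 of 21670 such genes over the autosomes and X. By name, 2 were classical class I genes (H2-K1 and H2-D1), 22 were class Ib genes (the Q, T and M genes) and 9 were class II genes (A, E, O and DM). H2-Ke6, an enzyme gene that carries the prefix only for its position, was counted apart.

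The series holds 1 group, granulocyte monocyte progenitors (GMP) collected as primary cells from adult male C57BL/6J mice of 5 to 6 weeks, with no treatment or altered allele named in the labels. GMP are committed bone marrow precursors of neutrophils and monocytes, and ATAC-seq marks accessible DNA by the insertions of the Tn5 transposase. There were 2 biological replicates of 50000 cells each, whose labels share a donor but differ in the biosample. The sorting method is not given here, and sequencing instruments are named for replicate 1 alone.

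Class I molecules sit on nearly all nucleated cells and show fragments of cytosolic proteins to CD8+ T cells. Class Ib molecules are their less variable relatives, many of them limited to certain tissues and read by natural killer or unconventional T cells. Class II molecules show fragments of engulfed proteins to CD4+ T cells and are typical of dendritic cells, B cells and activated macrophages. Class II promoters carry an X1 box bound by RFX, an X2 box bound by CREB and a Y box bound by NF-Y, on which the coactivator CIITA assembles, and class I promoters add a kappa B site and an interferon response element bound by IRF proteins.

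The promoter stretches below are shown because they let the motif letters of class II genes, and of class I and Q genes, be read beside the presence or absence of an accessible promoter. In the main list of regions, H2-Eb2 and H2-Q10 had none among the genes printed. Each class II stretch has 60 bases and ends with the Y box core ATTGG. Capitals mark the Y box core, the X1 box AGNNACNGA and the X2 box TGACGTCA or TGCGTCA, searched on both strands. All sequences read 5′ to 3′ towards the gene and, except for H2-DMa, are from RefSeq promoters on GRCm38.p6. That of H2-DMa was read from the same assembly at the GENCODE start that lay in its region of highest fold.
H2-Eb1, chr17:34305753-34305812, plus strand: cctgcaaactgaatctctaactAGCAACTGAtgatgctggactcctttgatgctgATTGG
H2-Eb2, chr17:34325520-34325579, plus strand: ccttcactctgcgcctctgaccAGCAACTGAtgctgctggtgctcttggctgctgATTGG
H2-Aa, chr17:34287867-34287926, minus strand: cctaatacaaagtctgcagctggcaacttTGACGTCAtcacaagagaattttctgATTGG
H2-DMb1, chr17:34153075-34153134, plus strand: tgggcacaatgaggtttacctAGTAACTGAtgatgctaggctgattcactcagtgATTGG
H2-DMb2, chr17:34145104-34145163, plus strand: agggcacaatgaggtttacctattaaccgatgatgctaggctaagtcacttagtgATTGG
H2-DMa, chr17:34135522-34135581, plus strand: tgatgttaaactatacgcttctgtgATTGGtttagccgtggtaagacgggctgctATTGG
H2-Oa, chr17:34092281-34092340, plus strand: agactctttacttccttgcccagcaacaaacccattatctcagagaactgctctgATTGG
H2-Ob, chr17:34238793-34238852, plus strand: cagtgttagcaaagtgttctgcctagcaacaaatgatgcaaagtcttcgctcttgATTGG

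H2-Eb1, which encodes the beta chain of the I-E molecule, and H2-Eb2 both have the X1 box ahead of the Y box, and so does H2-DMb1. H2-Aa has the X2 box instead, and the stretches of H2-Oa, H2-Ob and H2-DMb2 match neither X pattern here. H2-DMa shows a pair of Y box cores and neither X pattern. The stretch of H2-DMb2 is at its RefSeq start. For the other start, in its accessible region, the 250 bases upstream were searched on the strand of the gene only. No Y box core that began after the first 55 of these bases was found. A match is a run of letters, not a bound site, and a missing match says only that these letters are not in that stretch.

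For class I and Q genes, the next stretches have 60 bases and were placed without gaps on that of H2-K1. Capitals mark the kappa B site GGGATTCCC and the interferon response element GAANNGAAA, which is read here from the opposite strand.
H2-K1, chr17:34000406-34000465, minus strand: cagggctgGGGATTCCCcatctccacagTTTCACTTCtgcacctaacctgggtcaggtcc
H2-D1, chr17:35262916-35262975, plus strand: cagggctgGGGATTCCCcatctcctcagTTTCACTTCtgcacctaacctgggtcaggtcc
H2-Q4, chr17:35379436-35379495, plus strand: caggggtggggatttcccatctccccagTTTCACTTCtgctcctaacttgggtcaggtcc
H2-Q6, chr17:35424670-35424729, plus strand: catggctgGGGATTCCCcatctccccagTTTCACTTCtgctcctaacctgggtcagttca
H2-Q7, chr17:35439014-35439073, plus strand: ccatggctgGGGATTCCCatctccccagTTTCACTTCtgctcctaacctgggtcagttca
H2-Q10, chr17:35469906-35469965, plus strand: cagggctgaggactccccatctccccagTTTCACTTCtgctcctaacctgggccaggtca

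H2-D1 matched H2-K1 at 59 of the 60 bases, H2-Q4 and H2-Q6 at 55 each, H2-Q10 at 54 and H2-Q7 at 47. Without gaps, the kappa B site of H2-Q7 sits out of register with that of H2-K1, which lowers the value of H2-Q7. No other class Ib gene with a RefSeq promoter matched at more than 27 bases, the value of H2-Q2. H2-Ab1, H2-Q1 and H2-T24 are named only, so that 31 of the 34 members had a RefSeq promoter.

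The deposited files are lists of accessible regions without read counts, so the depth is unknown and no counting error can be given. The main list was made from both replicates and held 75148 regions after rows that overlapped by at least 1 bp had been merged. The lists of single replicates held 65423 regions in replicate 1 and 53686 in replicate 2, and a looser series-level list held 125024. A region absent from a list is one that did not pass the authors' threshold there, and is not shown to be closed. Fold enrichment is the authors' ratio for each region. What it is relative to is not stated, and each list was called separately, so replicates are compared by rank within a list.

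The cell label was checked with promoters. All 8 GMP markers had a promoter region, beside 61.4% of all genes, with folds from 5.50 (Mpo) to 13.95 (Ms4a3). So did 4 of 5 dendritic cell markers (all but Xcr1) and 3 of 4 macrophage markers (all but C1qa). The median folds of the accessible markers were 7.91 for GMP, 9.485 for dendritic cells and 11.49 for macrophages, beside 10.17 over all accessible promoters. These markers therefore hardly separate GMP from dendritic cells and macrophages. Of the B cell genes, Cd79b had a promoter region in the main list, and Cd79a, Ms4a1 and Cd22 had none. The dendritic cell genes Siglech and Flt3 had one each. A low number of accessible cells and a low accessibility per cell cannot be told apart in bulk samples, and the part of any other cell type in the values below was not tested.

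An accessible promoter was defined as a region with its summit within 1000 bp of an annotated transcription start site (TSS). In the main list, 19 of the 34 H2 genes (55.9%) had one, beside 13299 of 21670 protein-coding genes (61.4%). The share over the whole family was therefore near the background, but the classes differed in their counts. Both class I genes had an accessible promoter, and so did 8 of 9 class II genes (88.9%) and 8 of 22 class Ib genes (36.4%). In the replicate 1 list, 17 H2 genes had one, beside 60% of all genes. In the replicate 2 list it was 17 H2 genes again, beside 56.6% of all genes, and 16 members were shared by both lists. In the looser list the number was 23, beside 69.2% of all genes. The class counts were the same in both single-replicate lists, with 2 class I, 7 class Ib and 7 class II genes. With 1 group there is no test between conditions, and genes are not replicates, so these counts are a description.

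**Figure D1:**
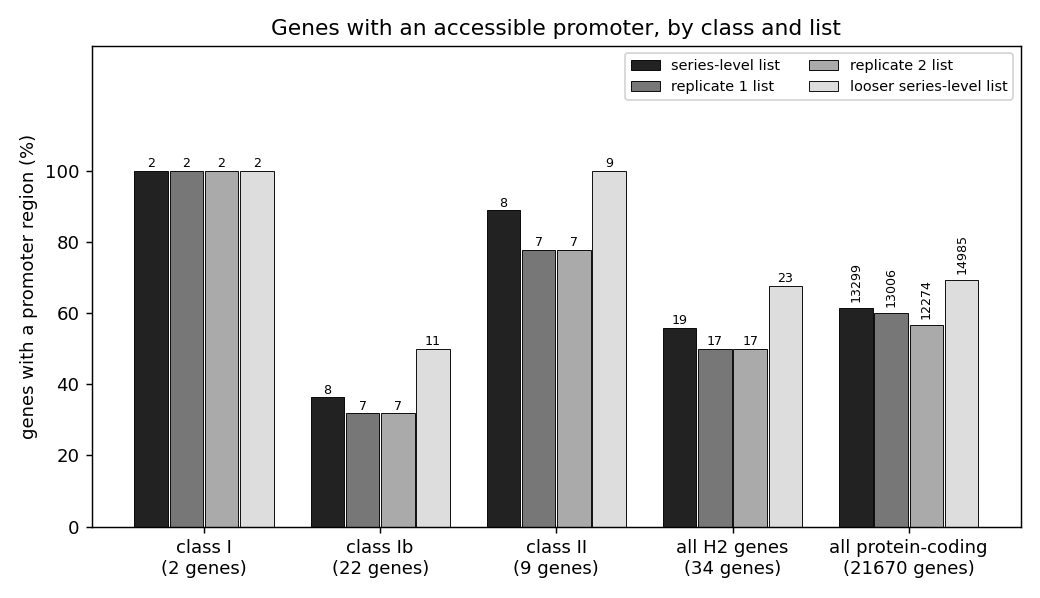
Share of genes with an accessible promoter (y axis, percent) for class I, class Ib, class II, all H2 genes and all protein-coding genes, in 4 lists of regions; numbers over the bars count the genes. Class II had 8 of 9 genes and class Ib 8 of 22 in the series-level list, beside 61.4% of all genes.

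The heavy chains of the classical class I molecules, H2-K1 and H2-D1, were accessible in every list. H2-K1 had a region of 892 bp at chr17:33999890-34000781 with a summit 51 bp upstream of its TSS. Its fold was 13.9 in the series-level list, 14.4 in replicate 1 and 12.2 in replicate 2, and its rank stood at the percentile 84.6 of all accessible promoters. H2-D1 had a region of 673 bp at chr17:35262594-35263266 with its summit in an annotated exon, 244 bp downstream of the TSS used. The RefSeq start of H2-D1 lies farther downstream, and the summit is upstream of that start, within the stretch printed above. The fold of the H2-D1 region was 10.3 in the series-level list, 10.6 in replicate 1 and 8.87 in replicate 2. In the series-level list it stood near the middle of the ranking, at the percentile 51.1.

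Among the class Ib genes, the Q genes split into members with and without a promoter region in the main list. H2-Q4, which encodes Qb-1, had the highest promoter fold of all 34 members. Its fold was 17.9 in the series-level list, 18.8 in replicate 1 and 14.8 in replicate 2, and its rank was at the percentile 98.4 of accessible promoters. H2-Q6 and H2-Q7, the genes of the Qa-2 antigen, came next within class Ib. H2-Q6 had a fold of 14.02 in the series-level list, 15.7 in replicate 1 and 11.6 in replicate 2. H2-Q7 had a fold of 13.3 in the series-level list, 14.6 in replicate 1 and 10.95 in replicate 2. All 3 regions had summits from 17 to 81 bp upstream of the TSS. H2-Q1, H2-Q2 and H2-Q10 had no promoter region in the main list, and H2-Q10 encodes a secreted molecule made in the liver. H2-Q2 and H2-Q10 appeared in the looser list with folds of 3.76 and 3.47, and H2-Q1 did not appear there.

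The kappa B site was present in the RefSeq promoters of 4 H2 genes, namely H2-K1, H2-D1, H2-Q6 and H2-Q7, and all 4 were accessible. It occurs in 0.353% of the 32851 RefSeq promoter windows of the same length, 300 bases. The interferon response element was present in 8 H2 genes, beside 7.52% of all windows. They were H2-K1, H2-D1, H2-Q4, H2-Q6, H2-Q7 and H2-M3, which were accessible, and H2-Q10 and H2-M2, which had no region in the main list. H2-Q10 and H2-Q4 both carry the response element and not the kappa B letters, and H2-Q10 lacked a region in the main list while H2-Q4 had the highest promoter fold of the family.

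Of the 4 T genes, 3 were accessible. H2-T23 encodes Qa-1, the ligand of the inhibitory receptor CD94/NKG2A of natural killer cells. It had a region with a fold of 10.6 in the series-level list, 11.4 in replicate 1 and 9.68 in replicate 2, and a weaker region of fold 8.26 with its summit 925 bp into the gene. H2-T22, a ligand of gamma delta T cells, had a fold of 11.1 in the series-level list, 13 in replicate 1 and 8.47 in replicate 2. The summit of that region also lay within 1000 bp of a TSS of Gm6034, so it may belong to either gene. H2-T24 had a fold of 8.38 in the series-level list, 8.73 in replicate 1 and 7.07 in replicate 2. H2-T3, which encodes the thymus leukaemia antigen of gut epithelium, had no promoter region, and its nearest summit lay 2361 bp into the gene in an intron.

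Of the 12 M genes, H2-M3 and H2-M10.2 were accessible. H2-M3, which presents N-formylated bacterial peptides, had the widest promoter region of the family, 1429 bp at chr17:37269812-37271240 with a summit 789 bp into the gene. Its fold was 10.5 in the series-level list, 10.4 in replicate 1 and 10.4 in replicate 2. H2-M10.2 belongs to the M10 genes, which are known from sensory neurons of the vomeronasal organ. Its fold was 5.49 at the percentile 5.97, its score for repeatability was 564 where the highest is 1000 and the threshold 540, and neither single-replicate list held it. The looser single-replicate lists gave it 5.39 in replicate 1 and 4.32 in replicate 2. No other accessible member had a score under 1000 or was absent from both single-replicate lists.

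The other 10 M genes had no promoter region in the main list. They were H2-M10.1, H2-M10.3, H2-M10.4, H2-M10.5 and H2-M10.6, with H2-M1, H2-M2, H2-M5, H2-M9 and H2-M11. H2-M5 appeared in the looser list with a fold of 2.94, and the other 9 did not appear there. Their nearest regions in the main list lay from 2.947 kb (H2-M5) to 55.26 kb (H2-M9) from the TSS. The longer Y box CTGATTGG, which contains the core and occurs in 4.1% of all promoter windows, was present in 11 of 20 class Ib promoters. Of these 11 genes 3 were accessible, H2-Q6, H2-Q7 and H2-T23, and the other 8 were M genes without a promoter region.

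**Figure D2:**
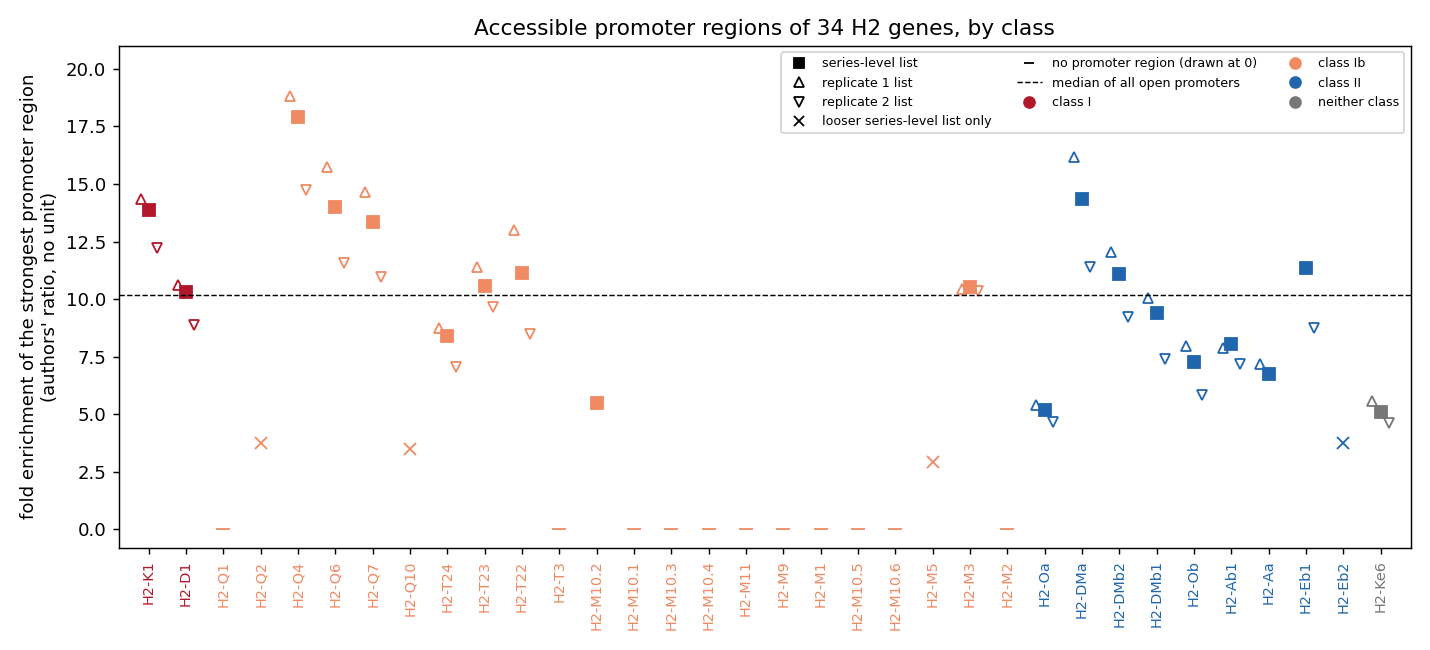
Fold enrichment of the strongest promoter region (y axis, the authors' ratio) for each of the 34 H2 genes (x axis), in the series-level list (squares) and the lists of replicate 1 and replicate 2 (triangles up and down); crosses are regions of the looser list only and dashes genes without a region. H2-Q4 is highest at 17.9, and 8 class II genes lie between 5.199 and 14.36.

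The A and E genes of class II were accessible, with H2-Eb2 as the 1 exception. H2-Ab1, the beta chain of I-A, had a promoter region of fold 8.04 in the series-level list, 7.86 in replicate 1 and 7.19 in replicate 2. A stronger region of fold 13.9, at chr17:34257408-34258067, covered the annotated 5′ end of the gene. It counted as distal because that end belongs to no protein-coding transcript in the annotation, and its summit lay 5.417 kb upstream of the protein-coding TSS. H2-Aa, the alpha chain of I-A, had a fold of 6.75 in the series-level list and 7.19 in replicate 1. Replicate 2 held it only in its looser list, with a fold of 5.34. H2-Eb1 had a fold of 11.4 in the series-level list and 8.76 in replicate 2. Replicate 1 held it only in its looser list, with a fold of 12.4. A further region of fold 7.99 had its summit 916 bp upstream of the H2-Eb1 start. By these protein-coding starts, H2-Ab1 stood at the percentile 26.6, H2-Aa at 14.6 and H2-Eb1 at 62.8. The value of H2-Ab1 rests on that choice, since the region at the 5′ end of the gene had a fold of 13.9 where the promoter region had 8.04.

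H2-Eb2 was the class II gene without an accessible promoter in the main list. In the looser lists it had a fold of 3.76 in the series-level list, 3.69 in replicate 1 and 3.19 in replicate 2. Its nearest region in the main list was in an intron 4.328 kb into the gene, with a fold of 6.21. The printed stretches of H2-Eb1 and H2-Eb2 hold the same X1 match and Y box core, so these letters do not separate the gene with a region from the one without. Mice of this strain are known to lack surface I-E because its alpha chain gene is defective, and the pseudogene H2-Ea-ps had no region within 1000 bp of its annotated start.

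H2-DMa and the 2 DMb genes encode the DM molecule, which exchanges peptides on class II in endosomes, and all 3 were accessible in every list. H2-DMa had the highest fold of class II, 14.4 in the series-level list, 16.2 in replicate 1 and 11.4 in replicate 2, at chr17:34135257-34135966. That region was at a GENCODE start inside the annotated gene, which runs from 34119541 to 34139101, and overlapped no RefSeq promoter of H2-DMa. A further region of fold 3.29 overlapped 1 RefSeq promoter of the gene, and its other RefSeq promoter overlapped no region. The highest value of class II thus rests on the start used. H2-DMb2 had a fold of 11.1 in the series-level list, 12.05 in replicate 1 and 9.24 in replicate 2. H2-DMb1 had a fold of 9.39 in the series-level list, 10.04 in replicate 1 and 7.40 in replicate 2. The accessible region of H2-DMb2 was at an annotated upstream start, and its RefSeq promoter shown above did not overlap a region, unlike that of H2-DMb1.

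H2-Oa and H2-Ob encode the DO molecule, which restrains DM and is best known from B cells, and their regions were weak and lay inside the genes. H2-Oa had a fold of 5.199 in the series-level list, 5.40 in replicate 1 and 4.66 in replicate 2, at the percentile 4.43 of accessible promoters. Its summit was 387 bp downstream of the TSS in an intron. H2-Ob had a fold of 7.26 in the series-level list, 7.96 in replicate 1 and 5.82 in replicate 2, with a summit 930 bp downstream. The printed Y box stretches of both genes lie upstream of the TSS, and their RefSeq promoters did not overlap a region. At 500 bp in place of 1000 bp, H2-Ob and H2-M3 would not count as accessible.

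H2-Ke6, which encodes a steroid and fatty acid dehydrogenase of neither class, had a region of 370 bp at its start. Its fold was 5.09 in the series-level list, 5.58 in replicate 1 and 4.61 in replicate 2, at the percentile 3.96 of accessible promoters. A weaker region of fold 3.99 lay 502 bp into the gene.

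The Y box core was present in a promoter window of all 8 class II genes that RefSeq holds, beside 37.4% of all promoter windows. The X1 box was in 5 of them, beside 17.7%, and the X2 box in 1, beside 3.81%. H2-DMb1, H2-Eb1 and H2-Eb2 had the X1 box in the printed stretch ahead of the Y box. The X1 matches of H2-Oa lay outside its printed stretch, and that of H2-Ob lay downstream of the RefSeq start. Of these 8 genes, 4 carried the longer Y box, namely H2-Aa, H2-Eb1, H2-Eb2 and H2-Oa. Within 50 bp of the summit, the Y box core was found in 15 of 23 H2 promoter regions (65.2%), beside 21.2% of 15564 promoter regions in all. The X1 box was found in 5 of 23 (21.7%), beside 5.32%, and the PU.1 site GAGGAAGT in 0 of 23, beside 3.01%. At distal summits of the H2 genes the Y box core was in 9 of 52 (17.3%), beside 11.7% of 59565 distal regions. The X1 box was in 10 of 52 (19.2%), beside 8.81%, and the PU.1 site in 2 of 52 (3.85%), beside 8.73%. Some H2 promoters are near copies of each other, so these regions are not independent of one another.

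Class II promoters were poor in CpG dinucleotides. The CpG ratio, observed over expected in 1001 bp at the TSS, had a median of 0.196 in class II genes, with a range of 0.117 to 0.478. It was 0.246 in class Ib, 0.658 in class I and 0.581 over all genes. Promoters with a ratio under 0.3 were accessible in 7 of 8 class II genes and 2 of 12 class Ib genes, beside 17.3% of 6735 genes with such a ratio. From 0.3 to 0.6, 5 of 6 H2 genes were accessible, beside 59.7% of all genes. At 0.6 or more it was 5 of 8 H2 genes, beside 90.5% of all genes, and H2-Q1, H2-Q2 and H2-Q10 were the 3 without a region. The CpG ratio was taken at the TSS nearest to the accessible region, or at the most upstream TSS where a gene had none.

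**Figure D3:**
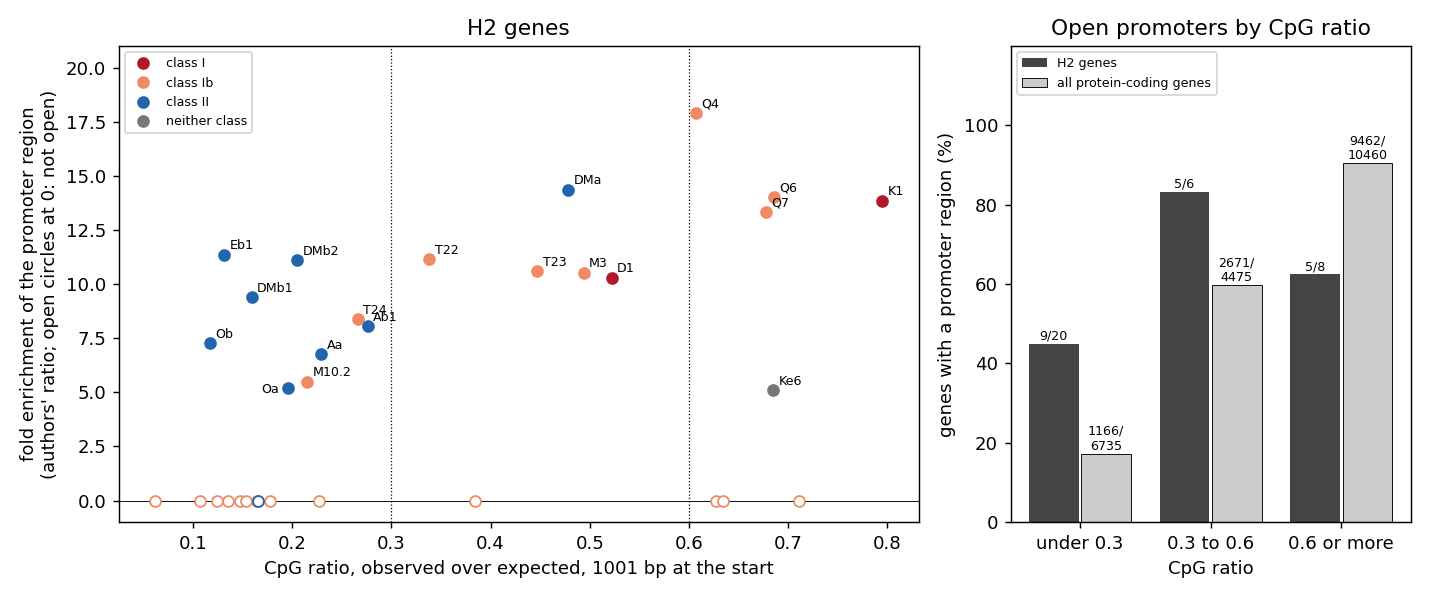
Left, CpG ratio at the TSS (x axis, observed over expected) and fold enrichment of the promoter region (y axis, the authors' ratio) for each H2 gene, with genes without a region as open circles at 0. Right, share of genes with an accessible promoter (y axis, percent) by CpG ratio for H2 genes and all protein-coding genes; under 0.3 it was 9 of 20 H2 genes and 17.3% of all genes.

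Reads from near-identical genes may not map to 1 place, so the share of 50-base stretches within 200 bp of the TSS that occur elsewhere in the genome was counted. It was 0% in all 9 class II genes. It was 61.4% in H2-Q6 and 49.7% in H2-Q7, both accessible, and 0% in H2-Q4, 0% in H2-K1 and 5.11% in H2-D1. Among the 15 members without a promoter region it was at most 17%, in H2-Q1. Of all genes with a share of at least 50%, 11.7% had an accessible promoter. How the authors treated reads that map to several places is not stated, and its part in the values of H2-Q6 and H2-Q7 was not tested.

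The median fold of the 19 accessible H2 promoters was 10.5, beside 10.17 over all accessible promoters. It was 12.1 in class I, 10.9 in class Ib and 8.72 in class II, from 2, 8 and 8 genes. Class II regions were also narrow, with a median width of 429.5 bp, beside 880 bp over all genes. Class I had a median of 782.5 bp and class Ib of 651 bp. Within each replicate's own list, 14 of the 16 members accessible in both ranked lower in replicate 2 than in replicate 1, beside 51.2% of all such genes. The median shift was -5.82 percentile points for these members and -0.226 for all genes. The largest was that of H2-T22, which stood at the percentile 40.1 in replicate 2 and 74.9 in replicate 1. H2-DMa stood at 75.9 in replicate 2 and 94.4 in replicate 1, and H2-M3 and H2-Ab1 ranked higher in replicate 2. Replicate 2 had fewer regions in all, and the part of depth in these shifts was not tested.

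Regions with a summit farther than 1000 bp from all protein-coding TSSs were called distal and given to the gene with the nearest TSS. There were 52 for the 34 H2 genes, with a mean of 1.53 per gene and a median of 1, beside a mean of 2.75 and a median of 1 over all genes. Of these, 8 were nearest to class I genes, 26 to class Ib and 18 to class II, and 10 H2 genes had none. Both single-replicate lists held 27 of the 52, and neither held 14. Their median fold was 8.02, beside 7.90 over all distal regions. By annotation 35 were intergenic, 15 in introns and 2 in exons.

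Class I genes had a median of 4 distal regions each. H2-D1 had 5, at 3.467 to 8.912 kb from its TSS, with folds from 3.86 to 9.07. H2-K1 had 3, of which the strongest, with a fold of 11.1, lay at the start of the pseudogene H2-K2. The distal region of H2-Q4, with a fold of 16.5, likewise lay at the start of H2-Q5, 14.41 kb away. Of 11 H2 pseudogenes, which are not members, 6 had a region within 1000 bp of their start. Besides H2-K2 and H2-Q5 these were H2-Bl, H2-T-ps, H2-T10 and H2-M6-ps, with folds from 7.60 to 12.7.

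The distal region with the highest fold of the family lay in the M cluster, where promoters had few regions. It covered 690 bp at chr17:36431322-36432011, 30.71 kb from the TSS of H2-M10.4, and was intergenic. Its fold was 21.3 in the series-level list, 19.9 in replicate 1 and 19.04 in replicate 2, above every promoter of the family in each list. H2-T3 had 4 distal regions, with folds from 7.45 to 11.2. H2-M10.1 and H2-M10.3, both without a promoter region, had 3 each. The nearest TSS need not be the gene that such a region acts on.

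In class II, H2-Oa had 4 distal regions, and H2-Ob and H2-Aa had 3 each. H2-Ob had a pair of distal regions stronger than its promoter, of fold 11.2 at 3.717 kb upstream and 12.2 at 10.01 kb downstream, the second in an exon of the gene. Its other distal region had a fold of 5.06, below the 7.26 of the promoter. Among those of H2-Oa, the regions 20.05 kb upstream, 12.57 kb upstream and 9.61 kb downstream had folds of 8.06, 7.98 and 8.91, above the 5.199 of its promoter, and that 5.082 kb downstream had a lower fold of 3.999. Those of H2-Aa lay 3.952, 5.921 and 8.41 kb upstream, with folds of 6.58, 8.87 and 6.19. H2-DMb2 was the class II gene without a distal region.

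**Figure D4:**
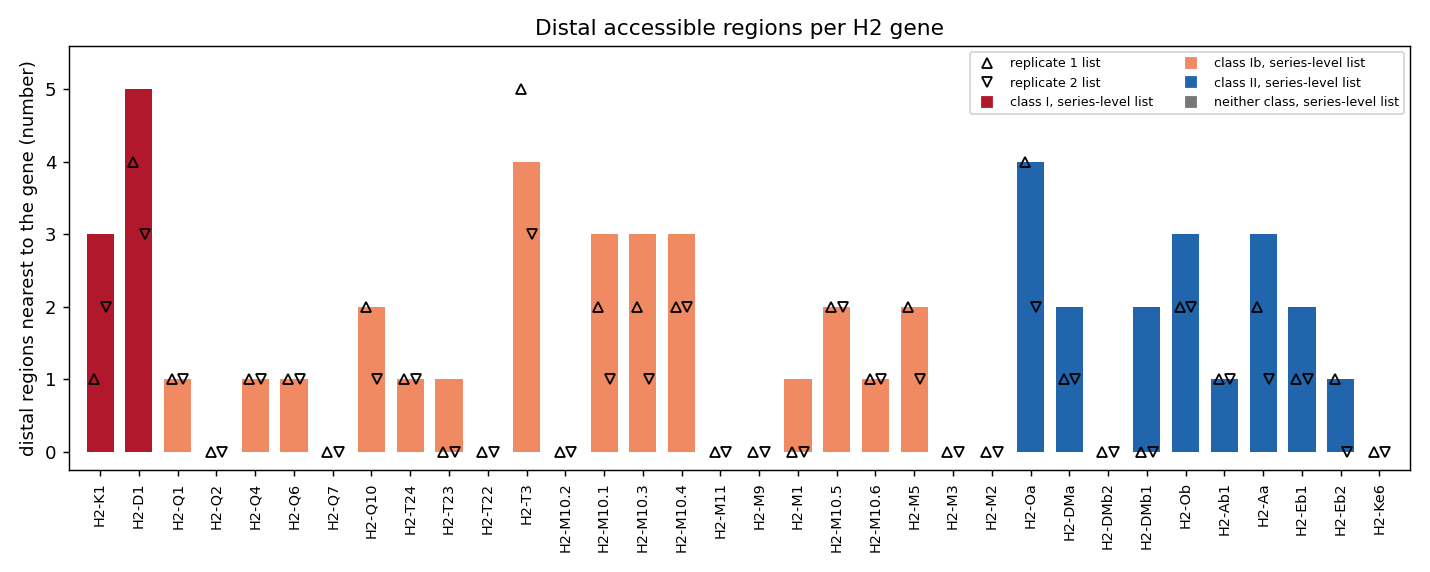
Number of distal regions nearest to each H2 gene (y axis) in the series-level list (bars) and in the lists of replicate 1 and replicate 2 (triangles up and down). H2-D1 has 5, and H2-Oa and H2-T3 have 4 each.

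Along the locus, the stretch of 0.345 Mb from H2-K1 to H2-Eb2 was dense in accessible regions. It held 142 regions per Mb, beside 36.2 on chromosome 17 and 28.5 over the autosomes and X. Of its 20 protein-coding genes, 18 had an accessible promoter, beside 64.3% on chromosome 17. The adjoining stretch of 0.921 Mb between H2-Eb2 and H2-D1, which has no H2 member, was also dense, with 91.2 regions per Mb. The stretch from H2-T24 to H2-T3 held 92.1 per Mb and that from H2-D1 to H2-Q10 held 47.2. The stretch of 1.2 Mb from H2-M10.2 to H2-M2 held 38.4 per Mb, close to the value of the chromosome, and 10 of its 45 protein-coding genes had an accessible promoter. Gene density differs between these stretches. Distal regions alone came to 78.2 per Mb from H2-K1 to H2-Eb2 and 46.7 per Mb between H2-Eb2 and H2-D1. From H2-M10.2 to H2-M2 they came to 27.5 per Mb, beside 27.9 on chromosome 17.

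**Figure D5:**
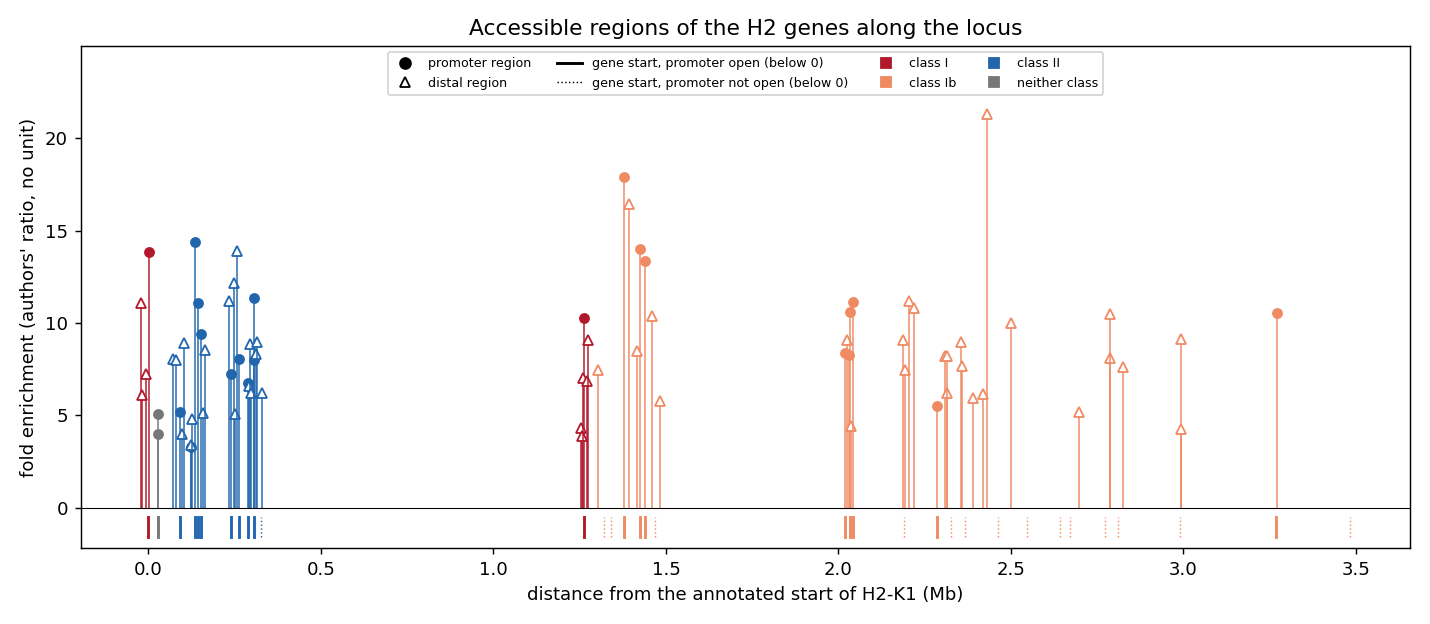
Fold enrichment (y axis, the authors' ratio) of promoter regions (filled circles) and distal regions (open triangles) of the H2 genes by distance from the annotated start of H2-K1 (x axis, Mb); ticks below 0 are gene starts, dotted where the promoter had no region. The class II genes lie within the first 0.345 Mb, and the highest point, 21.3, is the distal region nearest to H2-M10.4.

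The genes that work with these molecules were accessible almost throughout. Of 26 antigen presentation genes outside the family, 25 had an accessible promoter (96.2%), beside 61.4% of all genes. Among all genes with a CpG ratio of 0.6 or more the share was 90.5%, and the CpG ratio of the 26 genes was not compared. Their median fold was 8.67, below the 10.17 of all accessible promoters. All 11 regulators had one. Among them were Ciita (fold 8.35), the class II coactivator, and Nlrc5 (9.06), its class I counterpart. The Ciita region, at chr16:10487708-10488257 and the percentile 29.8, was at a start inside the annotated gene, which runs from 10480059 to 10528418. Its value rests on that start, and which start the Ciita transcripts use was not tested. The RFX subunit genes Rfx5, Rfxap and Rfxank had folds of 11.2, 8.19 and 13.1. The genes of the Y box factor NF-Y had folds of 7.16 (Nfya), 14.02 (Nfyb) and 14.5 (Nfyc), and Irf1 and Irf2 had 8.48 and 7.96. All 12 genes of class I peptide supply and loading had one, among them B2m (9.51), the light chain of class I. Psmb9, an immunoproteasome subunit, and Tap1, a peptide transporter subunit, shared a region of fold 9.38. Psmb10 had a fold of 5.28 and was absent from the replicate 1 list. Of 3 class II partners, Lgmn, an endosomal protease, had a fold of 12.1. Cd74, the invariant chain, had 4.17 and was absent from the replicate 2 list. Ctss, the cathepsin that trims the invariant chain, had no promoter region in the main list and a fold of 3.69 in the looser one.

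Of the 19 accessible members, those with their strongest summit nearest to the limit of 1000 bp were H2-Ob at 930 bp and H2-M3 at 789 bp. The further regions of H2-T23 and H2-Eb1 lay at 925 bp and 916 bp. Outside it, the nearest members were H2-T3 at 2361 bp and H2-M5 at 2947 bp.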

How the data were processed

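ATAC-seq was run on 2 biological replicates of 1 group, per the labels. The authors deposited region lists in mm10, whose rows carry a score for repeatability (the irreproducible discovery rate, IDR), a fold enrichment ratio, p- and q-values on a −log10 scale and a summit offset, held as another number. Not given in the sources used here: aligner, caller, versions, any Tn5 shift and what the fold is relative to. The conservative IDR list of the series was the main one. In the ranked list made between replicates, 8 unnamed per-replicate columns were not used.

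From these lists, rows sharing 1 bp or more were joined, and a joined region took summit and fold from its row of highest fold. Promoter regions had a summit within 1000 bp of a protein-coding TSS in GENCODE vM21 on GRCm38.p6, whose chromosomes are those of mm10. Other regions went to the nearest TSS. This assignment was tested on simulated data. Sequences came from RefSeq promoters and that assembly. Python 3.11, numpy 2.4.6, numba 0.67.0 and matplotlib 3.10.9 were used.

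Every member was named. The antigen presentation list of 27 genes had 26 matches, since Ifi30 is not protein-coding in the annotation. Of the cell type markers, 1 is not reported here. The members and all lists were chosen with earlier results of these data known. No test was run, because 1 group allows none between conditions and genes are not replicates. Alternatives were single replicates, other lists, the regions of higher fold, windows of 500 and 2500 bp, other starts and region overlap.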

Additional observations from a re-analysis of the deposited data

How the results depend on the processing

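Over 10 alternatives to the processing and 9 results, 79 of 90 values stayed within 1.5 times the reported count, or within 1.25 of the reported median fold, and 11 moved further. The value 1.25 is the SD of the median folds of both replicates, whose lists were called separately. The 90 values are not independent, since the H2 count contains the class counts, and the class I count was 2 in every setting. A fall from 19 to 13 H2 genes stayed within the limit, so the tally is a loose measure. With single replicates, the number of H2 genes with an accessible promoter was 17 in each, and class counts were 2 for class I, 7 for class Ib and 7 for class II in each. The distal regions were 5 for class I in each, 16 to 22 for class Ib and 8 to 12 for class II. The median promoter fold was 8.867 in replicate 2 and 10.63 in replicate 1, and 24 antigen presentation genes were accessible in each. In the looser list, class Ib had 43 distal regions and class II 33. With only the 50% of regions with the highest fold, 13 H2 genes and 17 antigen presentation genes had an accessible promoter, beside 44.7% of all genes. By class it was 2 class I, 7 of 22 class Ib and 4 of 9 class II genes, so class II was then near the share of all genes. The distal regions were 2 for class I, 15 for class Ib and 8 for class II. The members lost were H2-Aa, H2-Ab1, H2-Ob, H2-Oa, H2-Ke6 and H2-M10.2. H2-M10.2 was lost in each single replicate and in the other series-level IDR list, H2-Aa without replicate 1 and H2-Eb1 without replicate 2. A window of 2500 bp added H2-T3. Counting starts of transcripts of every type, an alternative chosen after seeing the data, gave 19 H2 genes again and 14 distal regions for class II. The cause of these shifts was not tested. No paired analysis was possible because there is 1 group only. Depth is unknown, and the numbers of distal regions depend on the list and on the fold required, and only the 27 distal regions in both replicates have a repeat in each.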
